A study of Mus musculus with 107 samples.

Results

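The dopamine receptors of the mouse are encoded by 5 genes, Drd1, Drd2, Drd3, Drd4 and Drd5, and their translated RNA was followed here across cell populations of the brain and spinal cord. Members were taken by gene symbol from the array annotation. Each gene was represented by the probe set with a single symbol that had the highest mean over all arrays. Of the 5 named genes, 4 had such a probe set, among 18194 genes in all, and Drd5 was not analysed here. Drd1 and Drd2 reached the minimum used for testing, a group mean of 6 on the log2 intensity scale (an intensity of 64), in at least 1 group. Drd3 and Drd4 reached it in none of the 30 groups.

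Dopamine receptors are G protein-coupled receptors of 2 families. The D1-like receptors, encoded by Drd1 and Drd5, couple to stimulatory G proteins and raise cyclic AMP, in the striatum through the olfactory G protein subunit encoded by Gnal and the adenylyl cyclase encoded by Adcy5. The D2-like receptors, encoded by Drd2, Drd3 and Drd4, couple to inhibitory G proteins and lower cyclic AMP. Drd1 and Drd2 mark the medium spiny neurons of the direct and the indirect pathway of the striatum, Drd2 is also carried by striatal cholinergic interneurons, and Drd1 is found in deep layers of the cortex. Drd2 also serves as the autoreceptor of dopaminergic neurons.

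RNA was isolated by translating ribosome affinity purification (TRAP). In each bacterial artificial chromosome (BAC) transgenic line, the regulatory DNA of a driver gene directs a tagged ribosomal protein to one class of cells, and ribosomes pulled down through the tag yield the RNA that those cells translate. The 76 TRAP arrays covered 24 populations, with 3 arrays each except cortical astrocytes (4 arrays) and Purkinje neurons (6 arrays), which came from 2 lines each. In the striatum these were Drd1 and Drd2 medium spiny neurons, from lines driven by those receptor genes, and cholinergic neurons of the Chat line. The Chat line also gave cholinergic neurons of the basal forebrain and spinal cord and motor neurons of the brainstem. The cortex gave neurons of layers 5a, 5b (driver Glt25d2) and 6 (Ntsr1), Cort+, Pnoc+ and Cck+ neurons from drivers of those names, astrocytes (Aldh1l1), mature oligodendrocytes (Cmtm5) and mixed oligodendroglia (Olig2). The cerebellum gave Purkinje (Pcp2), Golgi (Grm2), stellate and basket (Lypd6), granule (Neurod1) and unipolar brush neurons (Grp), Bergmann glia (Septin4), and the same 3 glial classes from the drivers used in cortex. The 31 arrays of unbound RNA, the fraction left after the pull-down, served as controls: 6 from striatum, 3 from basal forebrain, 9 from cortex, 3 from brainstem, 3 from spinal cord and 7 from cerebellum. All animals of the unbound groups carried a BAC too. Strain, sex and age of the animals are not given in the sources used here. A population is what its driver labels in a given line, so that it can hold more than one cell class.

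The promoters of the 2 receptors on which the results turn are shown because both genes also lent their regulatory DNA to a driver line. Each sequence runs from 250 bases before to 50 bases after a transcript start listed by RefSeq (assembly GRCm38.p6), which for Drd2 lies a little inside the gene's listed bounds, and capitals mark the GC box GGGCGG or its reverse complement CCGCCC.
Drd1, chr13:54055609-54055908, minus strand: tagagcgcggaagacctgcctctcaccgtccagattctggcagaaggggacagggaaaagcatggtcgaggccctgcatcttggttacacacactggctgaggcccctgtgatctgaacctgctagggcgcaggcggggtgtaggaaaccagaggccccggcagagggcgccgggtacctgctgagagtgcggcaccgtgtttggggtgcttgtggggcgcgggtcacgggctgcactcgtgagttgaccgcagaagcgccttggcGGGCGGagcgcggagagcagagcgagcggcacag
Drd2, chr9:49340153-49340452, plus strand: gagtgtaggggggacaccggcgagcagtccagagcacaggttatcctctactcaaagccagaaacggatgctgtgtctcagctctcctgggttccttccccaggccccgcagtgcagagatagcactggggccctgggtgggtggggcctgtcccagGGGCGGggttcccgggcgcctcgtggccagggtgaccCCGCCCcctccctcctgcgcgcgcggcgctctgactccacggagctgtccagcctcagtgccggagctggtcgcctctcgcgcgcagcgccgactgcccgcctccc
The printed Drd1 window held 1 GC box and the Drd2 window 2, and 35.7% of 32851 promoter windows of this length held at least 1 on either strand. Their GC content was 65.7% and 70.3%, against a median of 52.7% over all windows. The letters TATAAA (found in 13.6% of windows) and TGACGTCA (1.8%), searched on both strands, were in neither window. RefSeq lists a second start for Drd1, whose window (chr13:54054731-54055030, 59.3% GC) also held 1 GC box and neither of these letters.

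Before the comparisons, each set of arrays that the authors had normalized together was shifted so that 18 biotinylated control probe sets had the same mean. These shifts ran from -0.58 to 1.29 log2 units, with the largest in Drd1 medium spiny neurons. Between 25.8% and 41.6% of the values of an array were at its lowest value, which lay between 1.55 and 3.53 after scaling, so that levels near these have no useful order. As a check of the labels, Chat itself read 2.13 to 2.72 in the 4 Chat-line populations, at or next to the lowest value, while the vesicular acetylcholine transporter Slc18a3 averaged 11.83 to 13.43 there. The medium spiny neuron markers Ppp1r1b, Pde10a, Tac1 and Penk (4 of a list of 6 had a probe set) summed to 16.18 to 16.31 in the Drd1 and 15.89 to 16.19 in the Drd2 population. Layer 5a neurons carried all 6 markers of microglia and macrophages at 6 or above (summed intensity 13.61 to 14.69 on the log2 scale, against 9.24 to 11.85 in unbound cortex). Layer 5b neurons carried all 4 vessel markers (10.23 to 11.36, against 5.91 to 7.50 in unbound cortex), and the part of these cells in the receptor values was not tested.

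Drd1, on chromosome 13 (bases 54051183 to 54055658), was at 6 or above in 10 of the 24 TRAP populations and in 3 of the 6 unbound tissues. Levels on this probe set were highest in Drd1 medium spiny neurons (14.18, 13.81 and 13.94), below which lay unbound striatum (12.57 to 13.28, median 12.90, n = 6) and Drd2 medium spiny neurons (11.49, 12.13 and 12.05). Unbound basal forebrain followed at 11.34, 11.36 and 11.94, and its arrays overlapped those of Drd2 medium spiny neurons. Cortical neurons formed a band below, with layer 5b at 9.36, 9.36 and 9.64, layer 6 at 8.53 to 9.66 and layer 5a at 8.95 to 9.10. Cort+ neurons (7.04 to 7.33), striatal cholinergic neurons (7.14 in all 3 arrays), Cck+ neurons (7.09 in all 3) and cortical mature oligodendrocytes (mean 6.57) lay close together, and the arrays of the other 3 groups overlapped the range of Cort+ neurons. Pnoc+ neurons, at 6.20 in all 3 arrays, were the lowest group at or above 6.

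**Figure D1:**
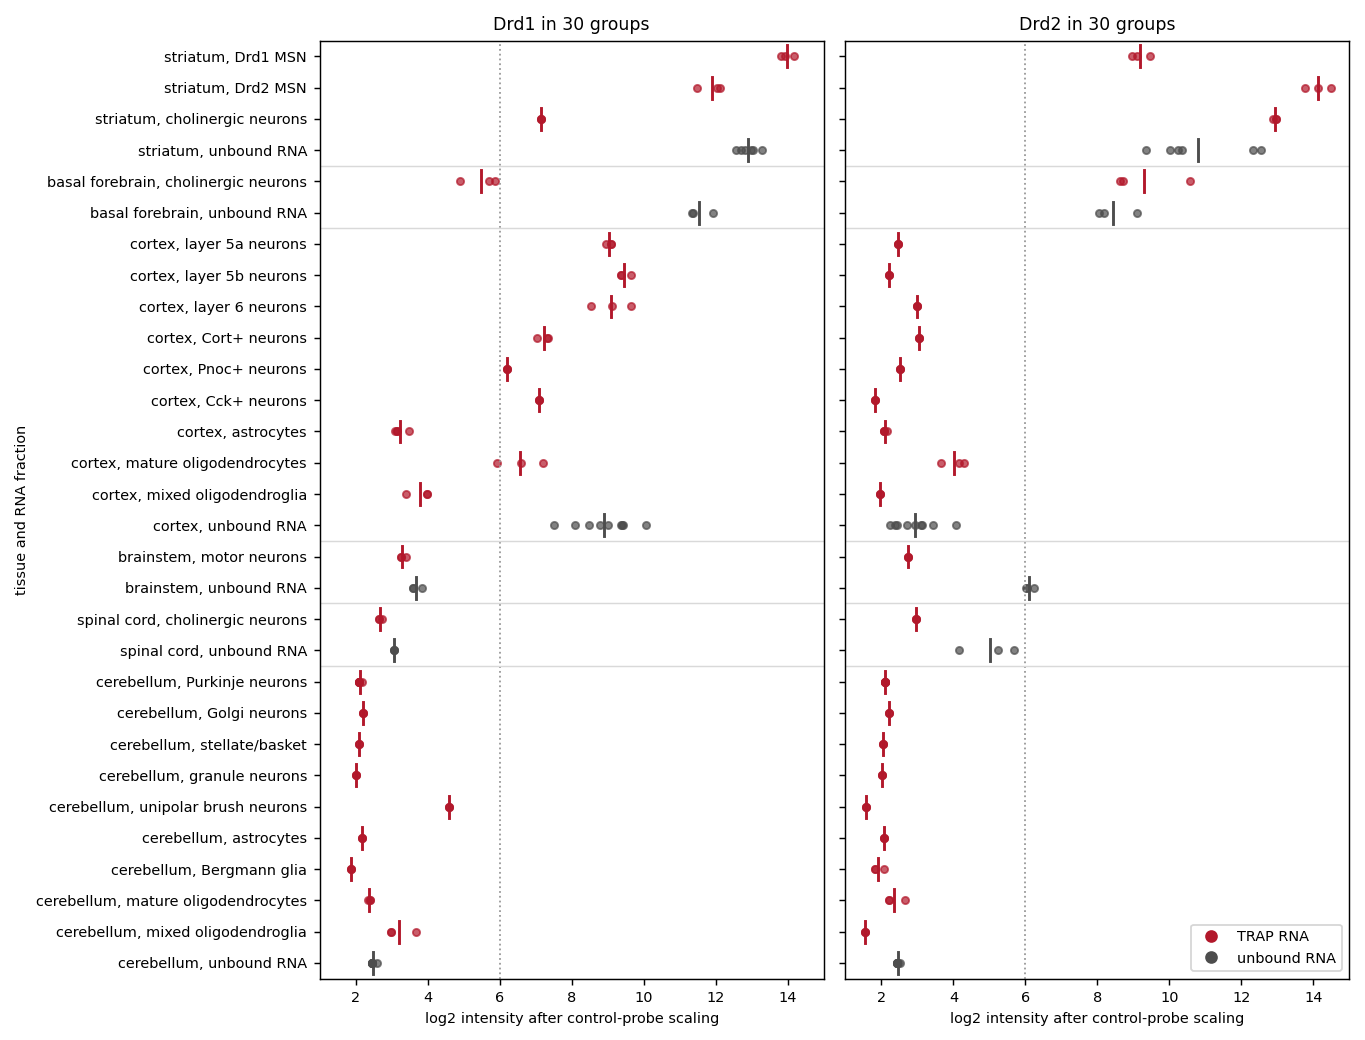
Scaled log2 intensity (horizontal axis) of Drd1 (left) and Drd2 (right) in 30 groups, with TRAP populations above the unbound RNA of their tissue. Points are arrays, vertical bars are group means, and the dotted line is the minimum of 6 (MSN, medium spiny neurons). Drd1 is above 6 in striatum, basal forebrain tissue and many cortical groups, and Drd2 in striatum, in basal forebrain and, at 6.10, in unbound brainstem.

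Striatal cholinergic neurons had little Drd1. Their 3 arrays stood at 7.14, against 12.57 to 13.28 in unbound striatum, a difference of -5.76 ± 0.23 (SE) on the log2 scale or 54.2-fold lower (adjusted p = 1.4e-38, limma with Benjamini-Hochberg adjustment over all genes tested). In that comparison 30.9% of 9877 genes tested were called lower, a call being an adjusted p under 0.05 with a change of at least 2-fold. Against the mean of both kinds of medium spiny neurons, which averaged 12.93, Drd1 was 55.6-fold lower (log2 difference -5.80 ± 0.23, adjusted p = 5.1e-39), where 39.1% of genes were called lower. That second call also required Drd1 to exceed unbound striatum on the side of the medium spiny neurons. Their mean did so by a margin (12.93 against 12.90) that ended without further scaling, under quantile normalization or without any of 3 single arrays of medium spiny neurons, although no array of the compared groups overlapped. The 4 medium spiny neuron markers summed to 12.05 to 12.67 in striatal cholinergic TRAP, against 15.32 to 16.03 in unbound striatum. This sum is not particular to medium spiny neurons, since it was 14.10 to 14.57 in cerebellar Golgi neurons and 11.57 to 13.27 in unbound cerebellum. The part of medium spiny neurons in the remaining Drd1 was not tested.

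The same depletion was seen in cholinergic neurons of the basal forebrain, a region whose projections supply the cortex and hippocampus with acetylcholine. Drd1 measured 4.89, 5.71 and 5.88 in these neurons, against 11.34, 11.36 and 11.94 in the unbound RNA of their tissue, at least 46.8-fold lower with the low side set to 6 (log2 difference -6.05 ± 0.27, adjusted p = 2.2e-35). There 41.4% of 10143 genes were called lower. The tissue itself carried the 4 medium spiny neuron markers at a summed 15.36 to 15.81, overlapping unbound striatum, and their part in its Drd1 was not tested. Between the striatum and the basal forebrain, the difference of TRAP minus unbound RNA in cholinergic neurons was 0.29 (95% interval -0.42 to 1.00, adjusted p = 0.54). On the mean of both Drd1 probe sets it was 1.36 and called.

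Drd1 in Drd1 medium spiny neurons exceeded unbound striatum by 1.08 ± 0.23 (adjusted p = 3.7e-05), with no overlap of arrays, and 29.8% of 9824 genes were called higher there. This difference depended on the control-probe scaling, since it was -0.18 without it and 0.75 under quantile normalization, and neither was called. Leaving out replicate 1 of these neurons gave 0.98, just under the 2-fold limit. In Drd2 medium spiny neurons Drd1 lay 1.01 ± 0.23 below unbound striatum (adjusted p = 0.00013, where 13% of 9653 genes were called lower). That call stood at the 2-fold limit and ended when any of 4 single arrays was left out (-0.81 without replicate 1 of these neurons), when the 2 unbound arrays of the Drd2 line were left out (-0.93) or on the mean of both probe sets (-0.87).

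In the cortex, Drd1 in projection neurons of the deep layers was close to that of the tissue. Layer 5b neurons averaged 9.45 ± 0.16, layer 6 neurons 9.10 ± 0.57 and layer 5a neurons 9.05 ± 0.08 (SD, n = 3 each), against 8.91 ± 0.78 in unbound cortex (n = 9, 7.51 to 10.06). The differences from unbound cortex were 0.54 (95% interval 0.10 to 0.98), 0.19 (-0.25 to 0.63) and 0.13 (-0.30 to 0.57) in the same order of layers, and none reached 2-fold. Over all genes, 36.7%, 30.8% and 60.7% were called higher in these comparisons, and the median gene differed by 0.69, 0.61 and 1.31. Under quantile normalization, layer 5a minus unbound cortex was -1.25 and called. Between the layers no Drd1 difference was called (-0.41 for layer 5a minus 5b, -0.35 for layer 6 minus 5b, 0.06 for layer 6 minus 5a, adjusted p from 0.20 to 0.87). In those comparisons 29.2%, 15.4% and 36.6% of genes were called in either direction.

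The second Drd1 probe set gave another order of the layers. Layer 6 neurons read 9.75, 10.25 and 10.66 on it, above layer 5a (9.27, 9.49 and 9.69) and layer 5b (9.04, 9.29 and 9.29), with no overlap between layer 6 and either. Layer 6 minus layer 5b was 0.33 on the mean of both probe sets, with an adjusted p of 0.20, so the direction depended on the probe set. Over the 13 groups at 6 or above on either probe set, the second minus the first ran from -1.12 (unbound striatum) to 1.34 (Cort+ neurons) with a median of 0.29. Unipolar brush neurons had 4.59 on the probe set used and 1.75, near the lowest value of their arrays, on the other.

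**Figure D2:**
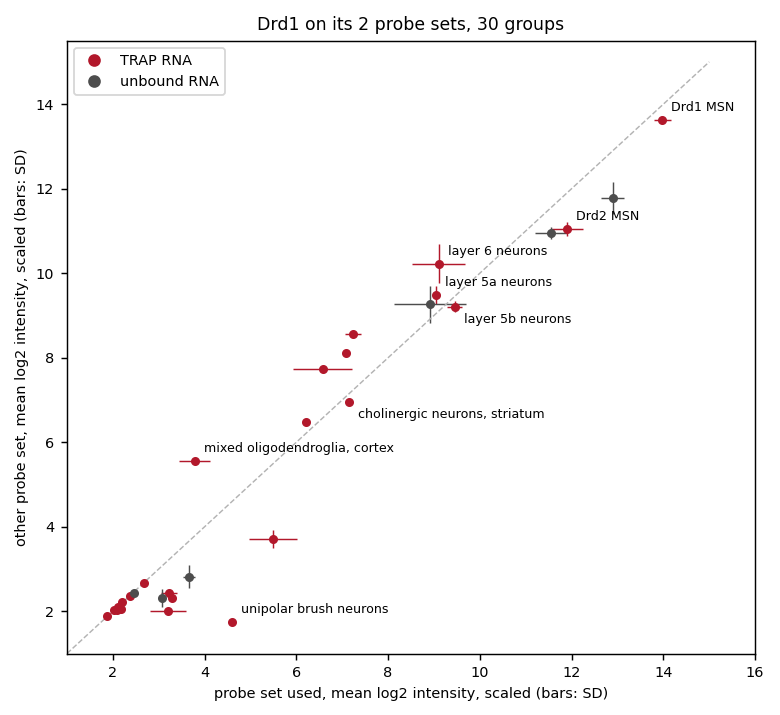
Mean log2 intensity of Drd1 in 30 groups on the probe set used (horizontal axis) and on the other one (vertical axis), with SD bars and a dashed line of equal values. Layer 6 neurons lie 10.22 on the second against 9.10 on the first, and unipolar brush neurons 1.75 against 4.59.

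On the probe set used, cortical populations other than deep-layer neurons had less Drd1 than the tissue. Cort+ neurons lay 3.20-fold below unbound cortex (log2 difference -1.68 ± 0.22, adjusted p = 6.1e-10) where 4.46% of 9553 genes were called lower. Cck+ neurons lay 3.53-fold below it (-1.82 ± 0.22, adjusted p = 1.3e-11, 22.8% of genes called lower) and Pnoc+ neurons 6.53-fold (-2.71 ± 0.22, adjusted p = 1.2e-19, 58.2% of genes called lower). With that background share, the Pnoc+ value says little about Drd1 in particular. The Cck+ difference was -0.42 and was not called against the single unbound array of the same driver, which at 7.51 was the lowest of the 9. The Cort+ call ended when replicate number was added to the fit as a block (the replicate block, -1.71, adjusted p = 0.085). No unbound array came from the Cort line, so replicate numbers pair no arrays in that fit. On the second Drd1 probe set Cort+ neurons read 8.57 in all 3 arrays, inside the range of unbound cortex (8.53 to 9.79, mean 9.26). Against the mean of the 3 layers (9.20), Drd1 was lower by 1.97 in Cort+, 3.00 in Pnoc+ and 2.11 in Cck+ neurons, with 38%, 82.5% and 51% of genes called lower. These last calls, too, need the layers to exceed unbound cortex, and they ended without further scaling and under quantile normalization.

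On the probe set used, glia of the cortex fell into 2 levels. Astrocytes (3.09 to 3.49, n = 4) and mixed oligodendroglia (3.40, 3.97 and 3.97) were at least 7.52-fold below unbound cortex, where 31.5% and 20.6% of genes were called lower. Both astrocyte lines gave this, with differences of -5.76 and -5.62. Mature oligodendrocytes averaged 6.57 ± 0.64 (SD, n = 3), which was 5.06-fold below unbound cortex (-2.34 ± 0.22, adjusted p = 3.0e-16, 32.8% of genes called lower). In these 3 arrays all 5 markers of cortical projection neurons were at 6 or above, with a summed intensity of 10.82 to 11.14, against 12.59 to 13.98 in unbound cortex, and Neurod6 averaged 8.65. The same sum was 10.69 to 10.94 in cortical astrocytes (2 of the 5 markers at 6 or above) and 9.92 to 10.65 in mixed oligodendroglia (3 of 5). The part of such neurons in the Drd1 of mature oligodendrocytes was not tested. On the second Drd1 probe set the 3 glial classes of the cortex lay apart from each other. There astrocytes averaged 2.44, mixed oligodendroglia 5.56 and mature oligodendrocytes 7.74. The cortical difference exceeded the cerebellar one by an interaction term in all 3 glial pairs (10.1%, 8.17% and 8.75% of genes called lower for astrocytes, mature oligodendrocytes and mixed oligodendroglia), although in the cerebellum Drd1 was under 6 in both fractions. All 9 cerebellar TRAP populations were under 6, at 1.88 to 4.59, as were the Chat-line neurons of brainstem and spinal cord and the unbound RNA of all 3 tissues.

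Drd2, on chromosome 9 (bases 49340360 to 49408177), reached 6 in 4 TRAP populations and in 3 unbound tissues. It was highest in Drd2 medium spiny neurons (13.77, 14.13 and 14.48), 3.32 ± 0.32 above unbound striatum (adjusted p = 1.1e-15, 16.8% of genes called higher). Striatal cholinergic neurons came next at 12.96, 12.96 and 12.87, below every array of Drd2 medium spiny neurons and above every array of Drd1 medium spiny neurons (8.95, 9.46 and 9.11). Unbound striatum ranged from 9.36 to 12.54 (median 10.30, n = 6). Cholinergic neurons of the basal forebrain read 8.62, 8.70 and 10.57, and overlapped both Drd1 medium spiny neurons and the unbound RNA of their tissue (8.05, 8.17 and 9.10). No cortical or cerebellar TRAP population was above 4.02.

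In striatal cholinergic interneurons, where Drd2 protein is known to slow firing when dopamine is released, Drd2 was higher than in unbound striatum. The difference was 2.12 ± 0.32 or 4.36-fold (adjusted p = 6.1e-09), where 23.2% of genes were called higher. It was 2.94 without the 2 unbound arrays of the Drd2 line and 2.75 against the unbound arrays of the Chat line alone. With the replicate block it was 2.15 and not called (adjusted p = 0.066). Replicate numbers showed little pairing there, as deviations of the Chat line's striatal TRAP and unbound arrays correlated at -0.023 and 0.136. Against the mean of both medium spiny neuron populations (11.65), Drd2 was 2.43-fold higher (1.28 ± 0.32, adjusted p = 0.00018, where 22.4% of genes were called higher). That mean averages 2 groups which lie on either side of the cholinergic arrays, and limma's test against a 2-fold bound did not call it (adjusted p = 0.35). So in the same 3 arrays Drd2 was above the tissue while Drd1 was below it.

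Basal forebrain cholinergic neurons differed from striatal ones in Drd2. Striatal cholinergic neurons were 12.4-fold higher (3.63 ± 0.37, adjusted p = 4.8e-14) with no overlap of arrays, and 14.2% of 4805 genes were called higher. Within the basal forebrain, Drd2 was 0.86 higher in TRAP than in unbound RNA (95% interval 0.13 to 1.59), short of the 2-fold limit. It passed under quantile normalization (1.67) and when replicate 1 or 2 of the TRAP arrays or replicate 3 of the unbound arrays was left out (1.16 to 1.20). Without replicate 3 of the TRAP arrays, the one at 10.57, it was 0.22. The difference of TRAP minus unbound RNA was 1.27 ± 0.49 larger in the striatum than in the basal forebrain (adjusted p = 0.03, 28% of genes called higher). That call ended without any of 8 single arrays, under quantile normalization (0.27) and with the replicate block (0.95, adjusted p = 0.53).

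Outside the forebrain, Drd2 in Chat-line neurons was near the lowest value of the arrays. Brainstem motor neurons stood at 2.74 in all 3 arrays, against 6.01, 6.05 and 6.24 in unbound brainstem, at least 1.07-fold lower (-3.36 ± 0.37, adjusted p = 2.2e-13, 32.3% of genes called lower). The 4 markers of dopaminergic neurons give the context of that tissue: the dopamine transporter Slc6a3 ranged from 3.62 to 10.55 in unbound brainstem, Th from 6.63 to 8.92, and Pitx3 was at the lowest value. Their part in its Drd2 was not tested. In the spinal cord, cholinergic neurons were at 2.95, against 4.15, 5.23 and 5.68 in unbound RNA, all under the minimum. Brainstem minus spinal cord was -1.29 in the difference of TRAP minus unbound RNA (adjusted p = 0.039, 2.56% of genes called lower), and that call ended without any of 9 single arrays.

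**Figure D3:**
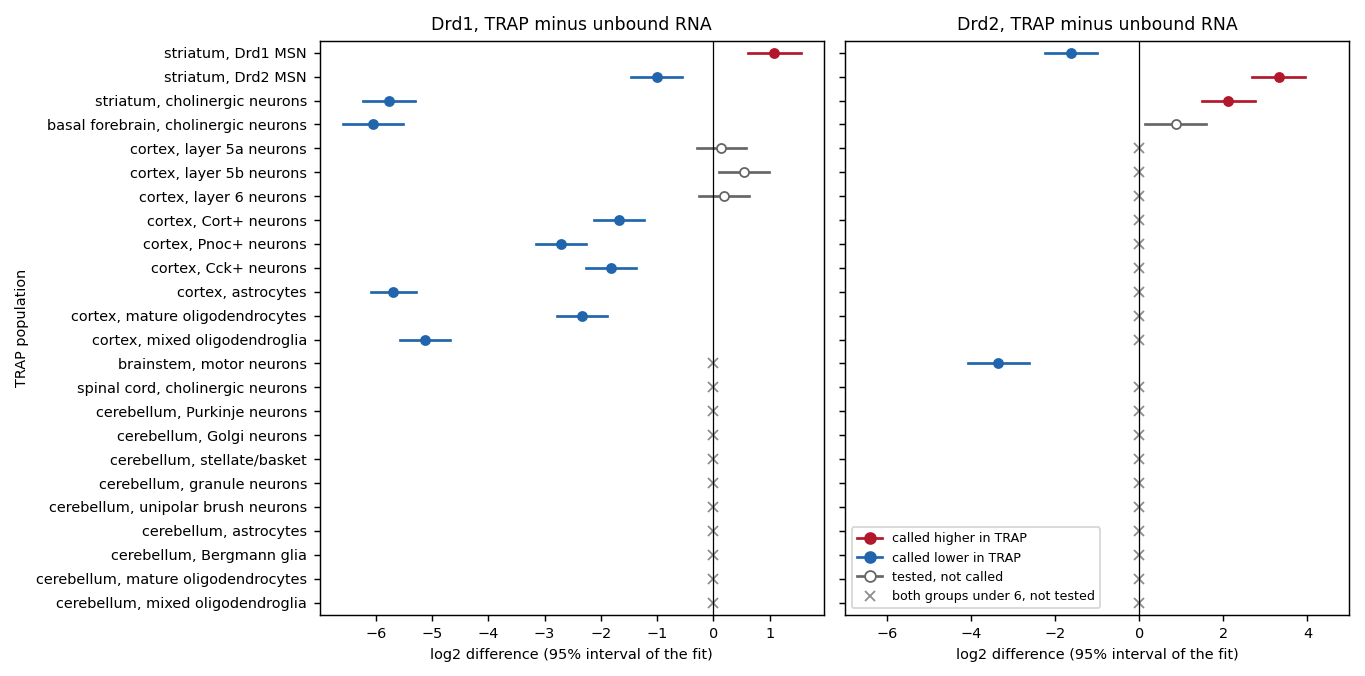
Log2 difference of TRAP minus unbound RNA (horizontal axis, with the fit's 95% interval) of Drd1 (left) and Drd2 (right) in 24 populations. Filled red points were called higher, filled blue points lower, open points were tested and not called, and grey crosses mark populations in which both groups were under 6. Striatal cholinergic neurons show -5.76 for Drd1 and 2.12 for Drd2.

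Drd3 encodes the D2-like receptor known from the islands of Calleja and the nucleus accumbens, and Drd4 that known from prefrontal cortex and retina. Drd3, on chromosome 16, was at the array's lowest value on every array, including those of medium spiny neurons, and no level can be given. Drd4, on chromosome 7, had 2 probe sets, of which one was at the lowest value on every array. The other reached an intensity of at most 45.8. Its highest group was stellate and basket neurons of the cerebellum, at 5.39 in all 3 arrays, followed by Purkinje neurons (4.13 to 4.40, n = 6) and Cck+ neurons (3.69 in all 3), against 3.04 to 3.53 in unbound cerebellum and 2.20 to 2.94 in unbound cortex. Under quantile normalization the order of the first 2 turned round, with means of 5.52 in stellate and basket neurons and 5.64 in Purkinje neurons. None reached 6, so none was tested. The identifier of this probe set carries the array maker's suffix for probes shared between transcripts.

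Unbound RNA serves here as the baseline, and the Drd2 baseline of the striatum was split by line. The 2 unbound arrays of the Drd2 line had 12.54 and 12.33 of Drd2, whereas those of the Drd1 line (9.36 and 10.25) and of the Chat line (10.02 and 10.34) were all lower, a 5.42-fold difference (2.44 ± 0.25, adjusted p = 2.8e-12). Among 9788 genes, 3.85% were called higher in that comparison, which was added after the values were seen. Ttc12, a tetratricopeptide repeat gene whose position starts 28784 bases beyond the end of Drd2, split the same way and further: 10.16 and 9.99 in the Drd2 line, against 2.47 to 2.94 in the other 4 unbound arrays, at least 16.8-fold higher (adjusted p = 1.1e-49). Leaving out any single one of these arrays moved the Drd2 difference to between 2.21 and 2.66 and the Ttc12 difference to between 7.23 and 7.47. Against the unbound arrays of its own line, Drd2 in Drd2 medium spiny neurons was higher by 1.70, while against those of the other lines it was higher by 4.13.

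In the Drd1 line, no such difference was called for Drd1 or its neighbour. Drd1 in its 2 unbound arrays was 12.97 and 12.57, against 12.71 to 13.28 in the other 4 (-0.19 ± 0.21, adjusted p = 0.43), where 15.2% of genes were called lower and the median gene differed by -0.52. Sfxn1, a sideroflexin gene 15998 bases from Drd1, was 11.83 and 11.40, against 11.61 to 11.84 (-0.09 ± 0.24, adjusted p = 0.76). Both differences turned positive under quantile normalization (0.49 and 0.57), still not called. In TRAP RNA both neighbours differed between the lines. Sfxn1 read 13.69, 13.58 and 13.70 in Drd1 medium spiny neurons, against 10.40, 10.40 and 10.34 in Drd2 medium spiny neurons, 9.72-fold higher (adjusted p = 5.8e-21), and 7.48% of 7435 genes were called higher there. Ttc12 read 3.59 in all 3 arrays of Drd1 medium spiny neurons, against 13.43, 13.52 and 13.75 in Drd2 medium spiny neurons, at least 189-fold lower (adjusted p = 1.3e-19), and 0.941% of genes were called lower. In striatal cholinergic neurons, from the Chat line, Ttc12 was 6.25 to 6.47. Transcripts of a BAC and of the genome cannot be told apart on these arrays.

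**Figure D4:**
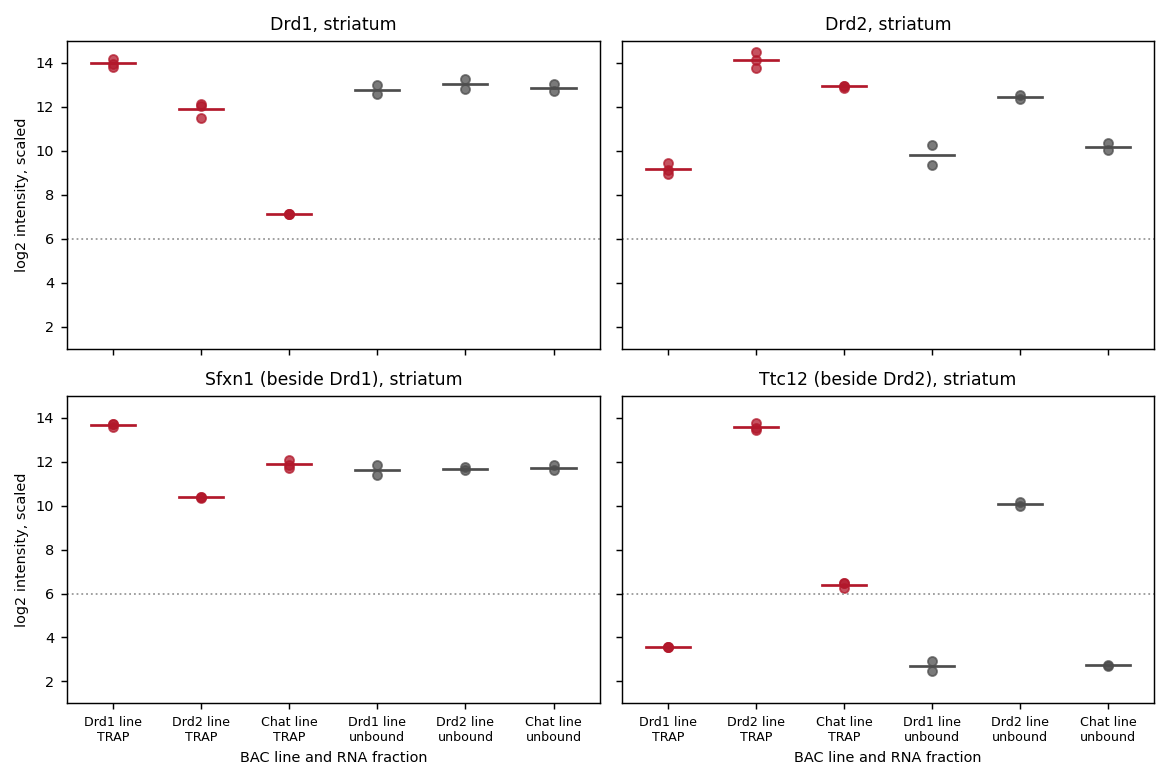
Scaled log2 intensity (vertical axis) of Drd1, Drd2 and one neighbour gene of each in striatal arrays, by line, with TRAP RNA (red) left of unbound RNA (grey). Points are arrays, bars are means and the dotted line is the minimum of 6. Drd2 and Ttc12 are high in the unbound RNA of the Drd2 line, at 12.33 to 12.54 and 9.99 to 10.16.

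The comparison of Drd1 medium spiny neurons with unbound striatum rested on these arrays. Their Drd2 was called 3.10-fold lower than unbound striatum (-1.63 ± 0.32, adjusted p = 5.2e-06, 8.2% of 9824 genes called lower), although the lowest unbound array (9.36) lay within their range. Without the 2 unbound arrays of the Drd2 line the difference was -0.82, against the Drd1 line's own unbound arrays -0.63, and neither was called. Among the 6 unbound tissues, the striatum had the highest mean of both receptors with and without these arrays. Drd1 was 15.8-fold higher in unbound striatum than in unbound cortex and 2.55-fold higher than in unbound basal forebrain, where 16.9% and 2.53% of genes were called higher. It was at least 119-fold higher than in unbound cerebellum, brainstem and spinal cord, where 10.3%, 9.72% and 13.6% were. Drd2 was 5.15-fold higher in unbound striatum than in unbound basal forebrain, 26.1-fold higher than in brainstem, and at least 28-fold higher than in cortex, cerebellum and spinal cord. Without the arrays of the Drd2 line, the Drd2 differences from basal forebrain and brainstem were 1.55 and 3.89 log2 units in place of 2.37 and 4.71. With the replicate block, the one from basal forebrain was 2.70 and not called (adjusted p = 0.12). In bulk RNA of a tissue, fewer cells of a type and less RNA per cell cannot be told apart.

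Medium spiny neurons together exceeded deep-layer cortical neurons in both receptors. Drd1 averaged 12.93 against 9.20, 13.3-fold higher (3.73 ± 0.17, adjusted p = 2.5e-34), and Drd2 averaged 11.65 against 2.55, at least 50.3-fold higher (adjusted p = 7.4e-53), where 12.8% of 9959 genes were called higher. These calls, too, need medium spiny neurons to exceed unbound striatum. Both ended without further scaling, and 1 remained under quantile normalization. The Drd1 call also ended without any of 3 single arrays of medium spiny neurons (3.67 to 3.69). Each average includes the population whose driver was that receptor gene. Among 17 measured genes of receptor signalling, 16 were tested, of which 7 rose and 4 fell, against 12.8% and 26.4% of all genes, and the median was 0.62 against -0.24 over all genes. Those that rose included Ppp1r1b, which encodes the phosphoprotein DARPP-32 (13.90 ± 0.32 against 9.47 ± 0.34, 21.6-fold), Gng7, the G protein gamma subunit of the Golf complex (16.5-fold), and Rgs9, which speeds the shut-off of D2-like signals (11.1-fold). Gnal itself was 6.34-fold and Adcy5 9.30-fold higher. Those that fell were Kcnj9, a potassium channel subunit (7.74-fold lower), Gnas (12.07 ± 0.17 against 14.51 ± 0.05), the inhibitory subunit Gnai1 (3.47-fold) and the arrestin gene Arrb2 (2.29-fold). Between Drd1 and Drd2 medium spiny neurons, 3 of 14 tested signalling genes were higher in the Drd1 population (7.48% of all genes) and none lower. They were Gnai1 (13.79 ± 0.04 against 11.81 in all 3 arrays, 3.93-fold), Arrb2 (2.09-fold) and Caly, a receptor-interacting protein (2.07-fold, with overlapping arrays). The median was 0.19 over the tested signalling genes and 0.37 over all genes. Control-probe scaling had raised the Drd1 population by 1.29 and the Drd2 population by 0.91, and Arrb2 and Caly lie close to the 2-fold limit.

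Signalling genes moved in both directions in striatal cholinergic neurons against unbound striatum. Of 16 tested, 7 fell and 4 rose (30.9% and 23.2% of all genes, medians -0.04 and -0.15). Ppp1r1b (8.12 ± 0.40 against 13.06 ± 0.27, 30.8-fold lower), Arpp21 (12.9-fold), Rgs9 (10.8-fold), Gng7 (9.84-fold), Adcy5 (6.54-fold), the G beta subunit Gnb5 (3.65-fold) and Gnal (2.52-fold) fell. Arrb2 (4.50-fold), Gnas (3.94-fold), the inhibitory subunit Gnai2 (2.90-fold) and Kcnj9 (2.87-fold, with overlapping arrays) rose. In basal forebrain cholinergic neurons 8 of 16 fell and none rose, against 41.4% and 8.01% of all genes, led by Ppp1r1b (53.8-fold lower), Arpp21 (21.6-fold) and Gng7 (18.9-fold). In brainstem motor neurons 5 of 15 fell and none rose, against 32.3% and 9.43%. In spinal cord cholinergic neurons 6 of 15 fell and none rose, against 53.4% and 5.38%.

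Genes of dopamine synthesis, transport and breakdown were also found in the forebrain cholinergic neurons. Of 8 measured genes, 5 were tested in striatal cholinergic neurons against unbound striatum, and 4 rose and 1 fell (23.2% and 30.9% of all genes). Th, the rate-limiting enzyme of dopamine synthesis, stood at 8.18 to 8.56 against 3.93 to 4.53, at least 5.31-fold higher (adjusted p = 1.3e-22). The vesicular monoamine transporter Slc18a2 (6.00 to 7.08 against 2.23 to 2.95), and the monoamine oxidases Maoa (3.55-fold) and Maob (7.02-fold), which break dopamine down, rose too. Ddc, the decarboxylase that completes dopamine synthesis, fell (6.11 ± 0.93 against 7.71 ± 0.61, 3.03-fold lower, with overlapping arrays). Basal forebrain cholinergic neurons had the same 4 genes higher among 6 tested (8.01% of all genes), with Th at 9.35 to 9.55 against 6.17 to 6.70 (7.53-fold), and Ddc 13.3-fold lower and Dbh at least 1.09-fold lower (41.4%). Slc6a3 averaged 4.05 and 5.93 in the striatal and basal forebrain populations, and Pitx3 was at the lowest value. In brainstem motor neurons 7 of 8 fell and in spinal cord cholinergic neurons 3 of 3, with none higher, against 32.3% and 53.4% of all genes lower. Such genes were not limited to cholinergic neurons. Against unbound cortex, 4 of 4 tested rose in layers 5a and 5b and 3 of 4 in layer 6, where 60.7%, 36.7% and 30.8% of all genes did. Maoa and Maob rose in all 3 layers (2.67-fold to 9.60-fold), and Th averaged 6.13, 6.45 and 6.62 in layers 5a, 5b and 6, against 2.20 in unbound cortex. The layer 5b arrays were uneven. The 4 dopaminergic markers, of which only Th averaged 6 or more there, summed to 5.73, 6.14 and 8.22 in them. These markers summed to 5.67 to 6.83 in layer 5a and to 6.89 to 6.95 in layer 6.

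**Figure D5:**
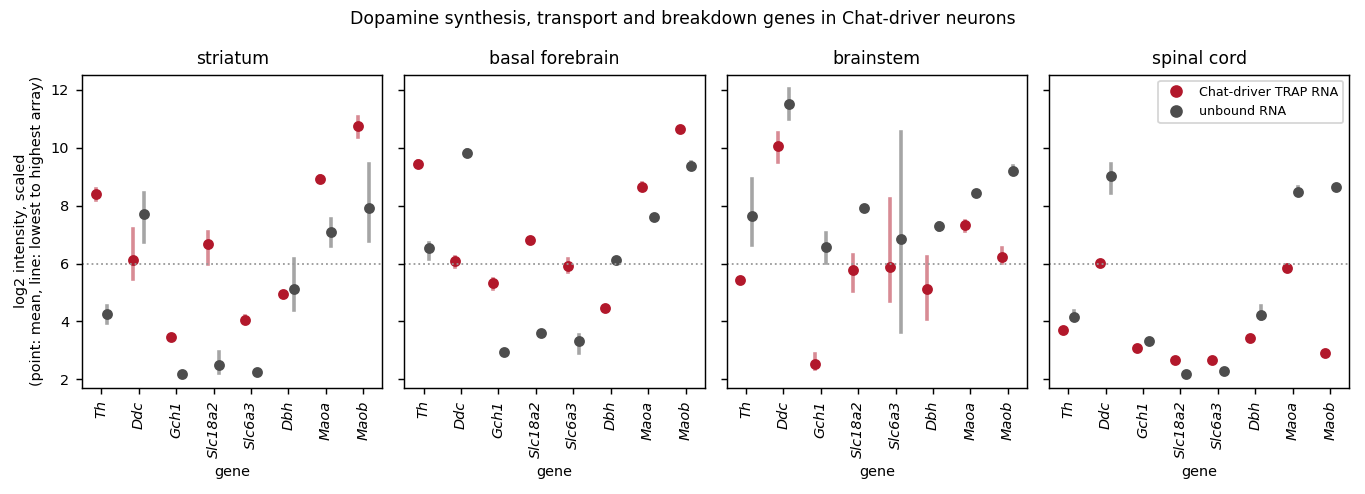
Scaled log2 intensity (vertical axis) of 8 genes of dopamine synthesis, transport and breakdown in Chat-line TRAP RNA (red, left of each pair) and in the unbound RNA of the same tissue (grey); points are means, lines run from the lowest to the highest array, and the dotted line is the minimum of 6. Th is above 8 in striatal and basal forebrain cholinergic neurons and under 6 in brainstem motor neurons and spinal cord cholinergic neurons.

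Genes with the most similar pattern were sought by Pearson's r over the 24 TRAP means among 12391 genes with a TRAP mean of at least 6. These are descriptions, since each population was scaled as a set of its own and many values lie at the lowest level. For Drd1 they were Neurl1b (r = 0.959), Ankrd63 (0.953), Smpd3 (0.951) and Stk26 (0.950), and for Drd2 Gbx1 (0.960), Ido1 (0.911), Six3 (0.904) and Mme (0.874). Gbx1 reached 6 only in Drd2 medium spiny neurons (6.12), with 5.68 in Drd1 medium spiny and 5.25 in striatal cholinergic neurons. Its r therefore rests on low values. Neurl1b had its highest means in Drd1 (11.91) and Drd2 medium spiny neurons (11.12), with layer 5a neurons next at 9.72. Six3, a homeobox transcription factor, averaged 10.74 and 10.30 in Drd2 and Drd1 medium spiny neurons and 9.39 and 9.26 in striatal and basal forebrain cholinergic neurons. With both medium spiny neuron populations left out, 22 populations remained, and the closest genes to Drd1 were Gpr6 (0.948), Sstr4 (0.939), Neurl1b (0.939) and Lpl (0.938). Gpr6, an orphan receptor, averaged 11.08 in Drd1 and 14.40 in Drd2 medium spiny neurons. For Drd2 they were Ido1 (0.988), Trap1a (0.983), Plcz1 (0.981) and Spink12 (0.977), and Ido1 averaged 7.66 and 5.84 in striatal and basal forebrain cholinergic neurons. In these 2 populations Trap1a averaged 8.72 and 6.12, Plcz1 7.76 and 5.41, and Spink12 7.47 and 4.94. In Drd1 and Drd2 medium spiny neurons those 3 genes were at the lowest value (3.53 and 3.15). Their r therefore rests on few groups above the lowest level.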

How the data were processed

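RNA of 76 TRAP and 31 unbound preparations was measured on Affymetrix arrays. The authors deposited GCRMA intensity values on a linear scale, per the submitters' processing notes, with GCRMA run within each group, per the series' design text, and no version is given in the sources used here. The series' design text calls the replicates independent TRAP replicates. Where nothing says that unbound arrays came from separate animals, p-values measure only the spread between arrays, which may be technical. Here intensities were floored at 1, put on the log2 scale and shifted per normalization set (30 sets, found by their shared lowest value) to an equal mean of 18 biotinylated controls, as the design text recommends. Of 45101 probe sets, 34958 had 1 gene symbol, 932 several and 9211 none. Promoters are RefSeq's, and all 5 receptors matched.

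limma 3.58.1 in R 4.3.3 fitted 1 coefficient per TRAP population and per unbound tissue over all arrays (eBayes, trend = TRUE), with Benjamini-Hochberg adjustment over genes with a compared mean of at least 6. A call needs an adjusted p under 0.05 and 2-fold. Between populations it also needs TRAP above unbound RNA on the higher side. A fold is a lower bound where the low side is under 6 and set to 6. The SE rests on the spread pooled over all groups, many of them at the floor, and is small for variable groups. SDs of 0 come from values that GCRMA made identical. Precision is limited by how few arrays a group has. Named genes are the receptors, 9 genes of dopamine synthesis, transport and breakdown (8 measured), 18 of signalling (17 measured), the chromosome neighbours and the 4 most similar genes per receptor. Receptors, lists and tests were chosen with earlier results of these data known. Replicate numbers paired brainstem (r from 0.490 to 0.629) and basal forebrain arrays (0.343 to 0.521), where every pair's deviations correlated, and the block changed no receptor call of TRAP against unbound RNA there. In the striatum r ran from -0.109 to 0.15, and the Cort line had no unbound array. Calls lost to the block there rest on replicate numbers with no shown pairing.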

Additional observations from a re-analysis of the deposited data

Results flagged for a closer look

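In 13 combinations of receptor and group with 4 to 10 arrays and any spread, 8 had 1 array apart from the others by Dixon's test, and all lie under the minimum of 6. For Drd1 these were cortical astrocytes replicate 4 (3.49, next 3.15), Purkinje neurons replicate 4 (2.17, next 2.10) and an unbound cerebellum array of the Pcp2 line (2.58, next 2.45). For Drd2 they were cortical astrocytes replicate 4 (2.14, next 2.07) and an unbound cerebellum array of the Septin4 line (2.52, next 2.46). For Drd4 they were Purkinje neurons replicate 5 (4.40, next 4.19), an unbound cortex array of the Aldh1l1 line (2.94, next 2.35) and an unbound striatum array of the Chat line (2.25, next 2.23).

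The difference of TRAP minus unbound RNA differed between regions by an interaction term in 5 cases. Cortical minus cerebellar Drd1 was -5.41 ± 0.30 (SE) in astrocytes, -2.26 ± 0.32 in mature oligodendrocytes and -5.88 ± 0.32 in mixed oligodendroglia, where 10.1%, 8.17% and 8.75% of genes were called lower. In the cerebellum both fractions were under 6, so these terms restate the cortical differences. Drd2 in cholinergic neurons, striatum minus basal forebrain, was 1.27 ± 0.49 (adjusted p = 0.03, 28% of genes called higher). Brainstem motor neurons minus spinal cord cholinergic neurons was -1.29 ± 0.52 for Drd2 (adjusted p = 0.039, 2.56% called lower), with the spinal cord under 6.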

How the results depend on the processing

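For 47 tested receptor differences, 966 values under alternatives were computed: 899 kept direction and call, 47 kept direction and lost the call, 5 gained one and 15 changed sign. Without further scaling, Drd1 minus unbound RNA was -0.18 in Drd1 medium spiny neurons, -0.38 in layer 5a and -0.03 in layer 6. Under quantile normalization it was -1.25, -0.13 and -0.36 in layers 5a, 5b and 6, with the replicate block -0.04 (5a) and -0.11 (6), and against the same driver's unbound array -0.61 (5b). Without single arrays it ranged from -0.04 to 0.28 (5a) and from -0.09 to 0.48 (6), and layer 6 minus 5a from -0.22 to 0.34. Drd1 of layer 6 minus 5b was 0.33 over all probe sets, and the cholinergic interaction for Drd1 was -0.21 under quantile normalization and -0.01 to 0.49 without single arrays. Sign changes by line were 0.49 (Drd1) and 0.57 (Sfxn1) under quantile normalization, and 0.01 and 0.12 without 1 Drd1-line array (ranges -0.39 to 0.01 and -0.30 to 0.12). Striatal cholinergic against medium spiny neurons for Drd2 was 1.28 with treat, not called. Medium spiny neurons against layers for Drd1 ranged from 3.64 to 3.83 without single arrays, with 3 calls lost only because Drd1 then no longer exceeded unbound RNA.

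Counts of receptor calls moved as follows. With no minimum, TRAP against unbound gave 10 higher and 18 lower (from 3 and 11), Cort+, Pnoc+ and Cck+ against layers 1 higher, cerebellar neurons 1 higher and 2 lower, and interactions 3 higher (from 1). Without further scaling 0 were called for Drd1 over Drd2 medium spiny neurons higher, cholinergic against medium spiny neurons lower, the 3 populations against layers lower (from 3), medium spiny neurons against layers higher (from 2) and interactions higher. Quantile normalization gave 0, 0, 1 and 0 for the last 4. Without single arrays, cholinergic against medium spiny lower ranged from 0 to 1, medium spiny against layers higher from 1 to 2, and interactions higher from 0 to 1. Treat gave 0 higher for cholinergic against medium spiny neurons and for interactions, the compared arrays alone 0 for interactions, all probe sets 2, and no condition on unbound RNA 2 for cholinergic populations (from 1). List counts under quantile normalization were 0 synthesis genes higher in medium spiny neurons against layers, 0 lower in striatal cholinergic against medium spiny neurons, and 1 lower in basal forebrain, and signalling 2 lower and 1 higher in the first and last.

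The replicate block ended calls for Drd2 in striatal cholinergic neurons (2.15, adjusted p = 0.066) and Drd1 medium spiny neurons (-1.60), Drd1 in Cort+ neurons (-1.71), unbound striatum against basal forebrain for Drd2 (2.70) and the cholinergic interaction for Drd2 (0.95). That interaction also ended without further scaling (1.03), under quantile normalization (0.27), and without any of 8 single arrays (0.93 to 1.25), and the brainstem one without any of 9 (-0.85 to -1.32). On the compared arrays alone, Drd2 in Drd1 medium spiny neurons had an adjusted p of 0.057. The causes were not tested. Levels under 6 are limited by GCRMA's floor.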
